A study of Homo sapiens with 6 samples.

Results

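The 9 genes described here encode the core of the mTOR complexes and the switch that sets mTOR complex 1: MTOR, MLST8, RPTOR, RICTOR, AKT1S1, DEPTOR, TSC1, TSC2 and RHEB. They were chosen by gene symbol, and all 9 were found among the 17687 genes of the expression table. Their RNA was measured by RNA-seq in KHM-5M, a human anaplastic thyroid cancer cell line, in 3 groups of 2 libraries. The SS group received sodium selenite, and the SS+NAC group received sodium selenite together with N-acetylcysteine (NAC), a thiol antioxidant. The control group is labelled only as control, and the study names PBS as the control of other assays. All groups are the same cell line, so they describe 1 tumour grown in culture. The dose and duration for the sequenced cells are not given in the sources used here, and NAC alone was not analysed here. The study asked whether selenite acts on the AKT/mTOR pathway through reactive oxygen species, and the comparisons below address the RNA of the pathway only, not protein or phosphorylation.

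mTOR is a serine/threonine kinase that works in 2 complexes. In mTOR complex 1 it is joined by the scaffold Raptor, and this complex promotes protein synthesis and restrains autophagy when amino acids and growth factors are present. In mTOR complex 2 it is joined by Rictor, and this complex phosphorylates AKT. The TSC1-TSC2 complex converts the small GTPase RHEB to its inactive form, and active RHEB at the lysosome turns on mTOR complex 1. In many tumours, thyroid cancers among them, this pathway is more active than in normal tissue.

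The libraries held 17645545 and 22016655 expected counts in the control group, 23493415 and 23810056 in the SS group, and 23682740 and 22617180 in the SS+NAC group. The 9 genes had between 404 and 5842 counts in every library, except DEPTOR with 75 to 121. Of 8 thyroid markers 6 were in the expression table, and 5 averaged 1 CPM or more. CPM are counts scaled to the library total of genes that passed the count filter, multiplied by a TMM factor. That factor, which scales libraries to each other, ran from 0.920 (SS replicate 2) to 1.06 (SS+NAC replicate 2). The lineage factor PAX8 was at 253 to 278 CPM and HHEX at 23.7 to 30.8 CPM. NKX2-1 stayed at or under 0.228 CPM and TG at or under 1.39 CPM in every library. KRT8, KRT18 and VIM were above 500 CPM in every library, and 7 of 8 epithelial and tumour markers averaged 1 CPM or more, with CDH1 below that. The summed level of these 8 markers was 7777 to 8301 CPM in the control group, 9666 to 11030 in the SS group and 6812 to 7889 in the SS+NAC group. MKI67, a proliferation marker among the 8, went the other way, at 480 and 497 CPM in control and 262 and 290 CPM in SS. Of the immune markers 2 of 5 averaged 1 CPM or more, and their sum of 78.1 to 97.8 CPM was mostly CD68, with the defining marker PTPRC at or under 0.562 CPM. The endothelial markers summed to 2.27 to 3.002 CPM, and 1 of 4 averaged 1 CPM or more. Of the fibroblast markers 3 of 7 did, with COL1A1 at 580 to 789 CPM and COL3A1 at or under 0.0415 CPM, and their sum was 647 to 660 CPM in control, 602 to 603 in SS and 710 to 809 in SS+NAC. The part of these markers in the results was not tested.

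Of the 9 genes, 6 differed between the SS and control groups. MTOR, RPTOR, RICTOR and TSC1 fell and MLST8 and RHEB rose, while AKT1S1, DEPTOR and TSC2 did not pass the test. As these are bulk samples, fewer cells with a transcript and less of it per cell cannot be told apart. The count comes from the quasi-likelihood test of edgeR, with p-values adjusted over 14005 genes by the Benjamini-Hochberg method, and a gene is called at an adjusted p of at most 0.05. By that rule 40% of all genes tested were called, 18.6% higher and 21.4% lower in SS. The median log2 fold change was -0.16 over the 9 genes and 0.003 over all genes tested. The 4 genes that fell have long transcripts, with effective lengths (the number of positions from which a read can come) of 6850 bases or more. The 2 that rose are short, at 1748 and 2082 bases. The same trend ran through the whole table, with a Spearman correlation of -0.68 between fold change and effective length across the 14005 genes, which are not independent replicates. It separated the libraries as the groups do: relative to each gene's mean over the 6 libraries, the median deviation on the log2 scale of the longest eighth of genes was -0.27 and -0.33 in the SS libraries and between 0.13 and 0.17 in the others. The length trend and selenite without NAC go with the same 2 libraries and cannot be told apart. Each of the 9 genes is therefore set beside the 200 genes nearest to it in effective length, and beside a second fit with a per-library offset for length. In that fit 0 of the 9 genes were called, against 9.23% of all genes, and RICTOR and RHEB were the 2 with an unadjusted p under 0.05.

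**Figure D1:**
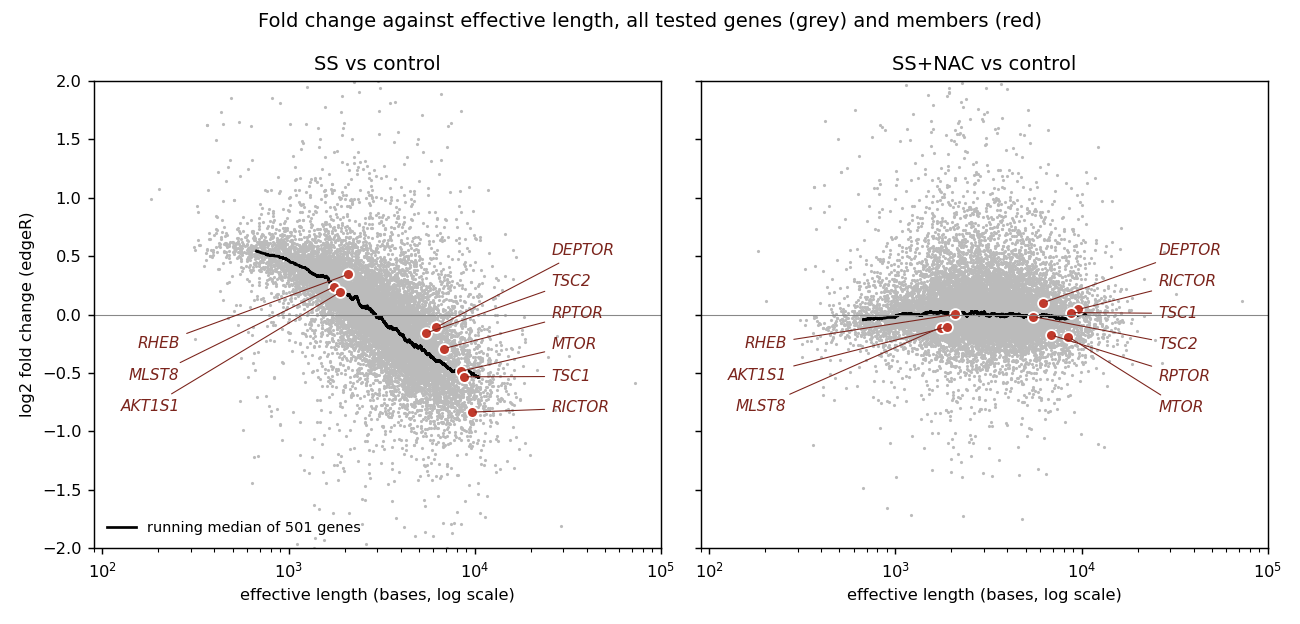
Log2 fold change of SS against control (left) and SS+NAC against control (right) on the vertical axis, by effective length in bases on a log axis, with each of 14005 tested genes as a grey point, the 9 genes in red and a running median in black. The running median falls with length on the left and is flat on the right, and RICTOR lies below it on the left at -0.84. Genes beyond a log2 fold change of 2 in either direction lie outside the axes.

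MTOR, the kinase of both complexes, lies on the minus strand of chromosome 1 (chr1:11106535-11262507, GRCh38, GENCODE release 29). It was at 90.9 and 94.2 CPM in the control libraries, 65.0 and 67.3 CPM in the SS libraries, and 87.0 and 75.2 CPM in the SS+NAC libraries. Both SS libraries were below the other 4. MTOR fell by 28.5% in SS against control, a log2 fold change of -0.48 (SE 0.0842, edgeR adjusted p = 0.00152). The 200 genes of similar length had a median of -0.49, and 51% of them lay below MTOR. With the length offset, the log2 fold change of MTOR was 0.01 with a 95% interval of -0.19 to 0.21. Its fall was thus of the size found in genes of its length.

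MLST8, the small WD-repeat subunit that stabilises the kinase domain in both complexes, lies on chromosome 16 (chr16:2204248-2209416, plus strand). It was at 87.0 and 89.7 CPM in control, 97.8 and 110 CPM in SS, and 86.3 and 77.4 CPM in SS+NAC. The SS libraries were the highest and the groups did not overlap. The log2 fold change in SS against control was 0.24 (SE 0.0859), just inside the threshold at an edgeR adjusted p of 0.0490. With a replicate block added, MLST8 was at 0.24 and was not called (edgeR adjusted p = 0.0912). The median of its length neighbours was 0.27, and with the length offset the value was -0.01 (95% interval -0.17 to 0.16). MTOR and its constant partner therefore moved in opposite directions in CPM, and their distances from the medians of their own length neighbours were 0.003 and -0.03 on the log2 scale.

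RPTOR encodes Raptor, the scaffold that brings substrates to mTOR complex 1, and spans 421553 bases of chromosome 17 (chr17:80544819-80966371, plus strand). Its values were 77.5 and 85.3 CPM in control, 65.99 and 67.1 CPM in SS, and 76.9 and 67.3 CPM in SS+NAC. The SS libraries were below the control libraries, with 1 SS+NAC library close to them. RPTOR fell by 18.3% in SS (log2 fold change -0.29, SE 0.0863, edgeR adjusted p = 0.0210). Its neighbours in length had a median of -0.42, and with the offset RPTOR was at 0.13 (95% interval -0.07 to 0.33).

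RICTOR encodes the scaffold of mTOR complex 2 and had the largest difference of the 9 genes. The gene is on the minus strand of chromosome 5 (chr5:38937919-39074408), and at 9624 bases its effective length was also the greatest of the 9. It was at 38.2 and 33.1 CPM in control, 21.4 and 18.5 CPM in SS, and 33.3 and 40.1 CPM in SS+NAC. The SS libraries lay clearly below the other 4, which overlapped each other. RICTOR fell by 44.0% in SS against control (log2 fold change -0.84, SE 0.119, edgeR adjusted p = 0.000593). Its length neighbours had a median of -0.49, and 15% of them lay below RICTOR. With the length offset, the difference was -0.31 (95% interval -0.55 to -0.07, edgeR adjusted p = 0.109). RICTOR was the only 1 of the 9 whose length-adjusted level was lower in both SS libraries than in both control libraries, which held for 28.5% of all genes tested. Of its exonic bases, 229 are shared with OSMR on the opposite strand, and the sources used here do not say whether counting used the strand.

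AKT1S1 encodes PRAS40, an AKT substrate that inhibits mTOR complex 1, and lies on the minus strand of chromosome 19 (chr19:49869033-49878459). It was at 114 and 116 CPM in control, 127 and 136 CPM in SS, and 116 and 97.6 CPM in SS+NAC. The SS libraries were above the others, but the difference from control did not pass the test (log2 fold change 0.19, SE 0.0905, edgeR adjusted p = 0.120). AKT1S1 was called when only the 4 control and SS libraries were fitted (adjusted p = 0.0346), and without SS+NAC replicate 1 (0.0386) or replicate 2 (0.0403). With the length offset the value was -0.02, and its neighbours had a median of 0.21. DEPTOR, which encodes an inhibitor bound to mTOR in both complexes, is on chromosome 8 (chr8:119873717-120050913, plus strand) and was the lowest of the 9. It was at 4.17 and 5.02 CPM in control, 4.23 and 4.34 CPM in SS, and 4.89 and 5.03 CPM in SS+NAC, and the groups overlapped. Its log2 fold change in SS was -0.11 with a 95% interval of -0.47 to 0.26, so changes within these limits could not be told from none at this depth. The neighbours of DEPTOR in length had a median of -0.39, and 82% of them lay below it. With the offset DEPTOR was at 0.28 (95% interval -0.09 to 0.64). Its effective length of 6226 bases is greater than the 2622 exonic bases that GENCODE release 29 gives the gene, so the table used a longer transcript model.

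TSC1 encodes hamartin, which stabilises tuberin, and lies on the minus strand of chromosome 9 (chr9:132891348-132946874). It was at 27.3 and 28.8 CPM in control, 19.1 and 19.6 CPM in SS, and 29.9 and 26.8 CPM in SS+NAC. The 2 SS libraries were the lowest. TSC1 fell by 30.9% (log2 fold change -0.53, SE 0.0913, edgeR adjusted p = 0.00141). Its length neighbours had a median of -0.47, and its value with the offset was -0.03 (95% interval -0.24 to 0.18).

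TSC2 encodes tuberin, the GTPase-activating subunit of the same complex, on chromosome 16 (chr16:2047465-2089487, plus strand). It was at 61.5 and 68.5 CPM in control, 56.4 and 60.2 CPM in SS, and 68.9 and 59.8 CPM in SS+NAC. The SS libraries were below the control libraries by a narrow margin and overlapped those of SS+NAC. The difference from control did not pass the test (log2 fold change -0.16, SE 0.0919, edgeR adjusted p = 0.195). Its neighbours in length had a median of -0.34, and 75.5% of them lay below TSC2. With the offset TSC2 was at 0.17 (95% interval -0.05 to 0.39). TSC2 shares 778 exonic bases with PKD1 on the opposite strand, which is 3.96% of its exonic bases.

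RHEB, the GTPase that activates mTOR complex 1, lies on the minus strand of chromosome 7 (chr7:151466012-151520120). It was at 198 and 199 CPM in control, 238 and 267 CPM in SS, and 195 and 203 CPM in SS+NAC. Both SS libraries were above the other 4. RHEB rose by 26.9% in SS (log2 fold change 0.34, SE 0.0789, edgeR adjusted p = 0.00622). Its neighbours in length had a median of 0.20, and 78.5% of them lay below RHEB. With the offset the value was 0.18 (95% interval 0.03 to 0.34, edgeR adjusted p = 0.133). GENCODE lists 3 processed pseudogenes of RHEB, and reads from them could be counted as RHEB.

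**Figure D2:**
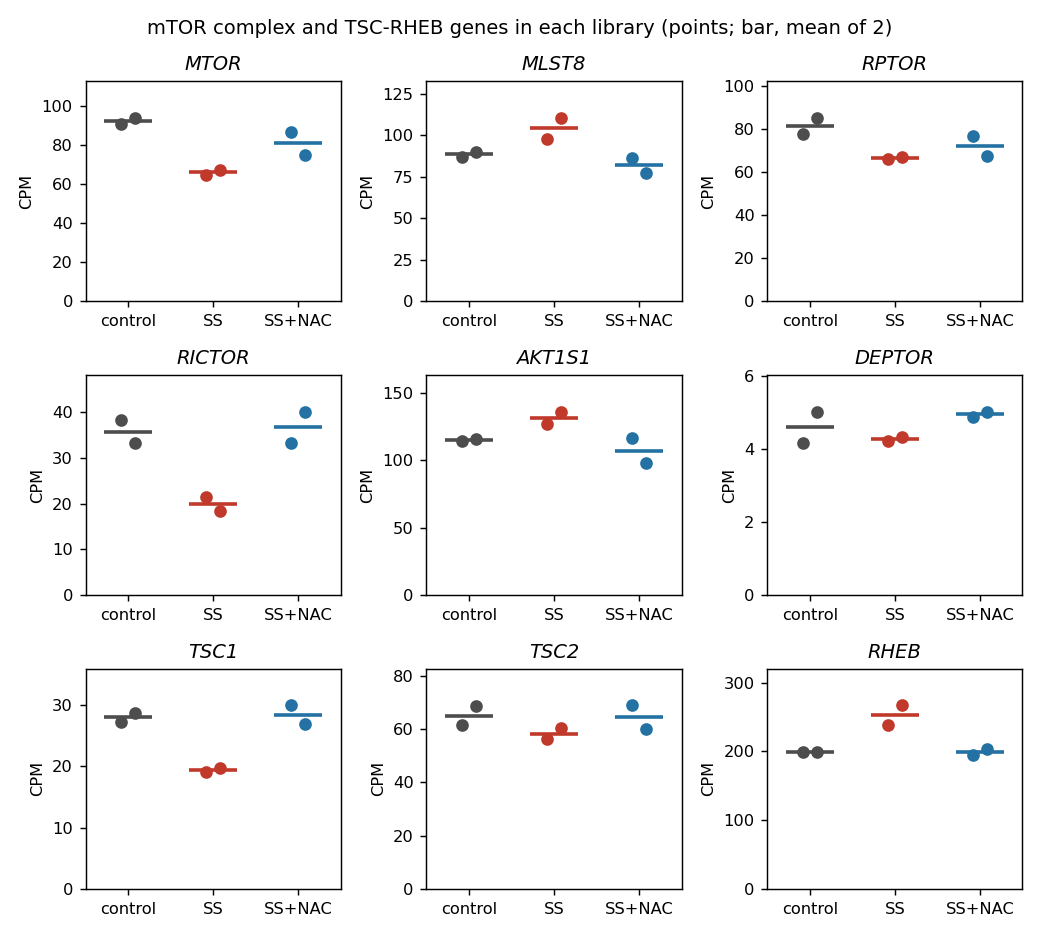
CPM of each of the 9 genes (vertical axes, each starting at 0) in the control, SS and SS+NAC groups, with a point for each library and a bar at the mean of 2. MTOR, RICTOR and TSC1 show both SS points below the other 4, MLST8, AKT1S1 and RHEB show both SS points above them, and the DEPTOR groups overlap between 4.17 and 5.03 CPM.

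In TMM-scaled CPM with no length adjustment, 8 of the 9 genes had control and SS libraries that did not overlap. Of these, 5 were lower in SS (MTOR, RPTOR, RICTOR, TSC1 and TSC2) and 3 were higher (MLST8, AKT1S1 and RHEB). Over all genes tested, 36.9% were lower and 36.3% higher by the same criterion. After the length adjustment, DEPTOR, RPTOR, TSC2 and RHEB were higher in both SS libraries, against 30.3% of all genes, and RICTOR alone was lower. The median distance of the 9 genes from their length neighbours was 0.003 on the log2 scale in SS against control, with a spread between replicate libraries of 0.0857 (SD). It was -0.03 in SS+NAC against control and 0.15 in SS against SS+NAC. The last value ranged from 0.06 to 0.20 without each library in turn. By library, the median deviation of the 9 genes from their neighbours was -0.04 and 0.04 in control, 0.005 and 0.11 in SS, and 0.009 and -0.15 in SS+NAC. A fit without 1 library leaves 1 in that group, so the spread between replicates then comes from the other groups. The calls of MTOR, RICTOR and TSC1 held without each library in turn. Their log2 fold changes ranged from -0.51 to -0.43, -0.95 to -0.73 and -0.57 to -0.47. The call of MLST8 was lost without control replicate 1 (at 0.21), control replicate 2 (0.29) or SS replicate 2 (0.14). It was also lost with no filter on low counts (0.23, edgeR adjusted p = 0.0775) and with a replicate block (0.24, adjusted p = 0.0912). That of RPTOR was lost without control replicate 2 (-0.19), SS replicate 1 (-0.28) or SS replicate 2 (-0.31). That of RHEB was lost without control replicate 1 (0.34) or SS replicate 2 (0.26). Without SS replicate 2, 3 of the 9 genes and 3164 of all 14005 were called. With Bonferroni adjustment, the correction named in the study's methods, 0 of the 9 and 220 of all genes were.

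The start regions of 3 genes are shown because they hold either the largest difference or a match to a stress or lysosome element. RefSeq promoters (GRCh38.p14, 250 bases before to 50 bases after a transcription start) were matched for 6 of the 9 genes, namely MTOR, RICTOR, RHEB, TSC1, TSC2 and RPTOR. They were searched on both strands for the CLEAR core TCACGTGA, bound by TFEB family factors, the antioxidant response element TGACNNNGC, bound by NRF2, and the ATF4 element TGATGNAA. Of 35116 promoters of this length, 0.980% hold the first, 13.4% the second and 3.62% the third. Upstream of 1 of the TSC2 starts, on the plus strand, all 3 were found in overlapping letters, with the CLEAR core 115 to 108 bases before the start, the antioxidant response element on the minus strand at 121 to 113 and the ATF4 element at 110 to 103. Their joint span is in capitals, and the stretch lies inside the span that GENCODE gives the gene. RHEB held an antioxidant response element from base 10 to base 18 after its start, in capitals in a shorter stretch. None of these letters was found in the window of RICTOR. A match is a description of the letters and not a binding site.
TSC2, chr16:2047735-2047984, plus strand: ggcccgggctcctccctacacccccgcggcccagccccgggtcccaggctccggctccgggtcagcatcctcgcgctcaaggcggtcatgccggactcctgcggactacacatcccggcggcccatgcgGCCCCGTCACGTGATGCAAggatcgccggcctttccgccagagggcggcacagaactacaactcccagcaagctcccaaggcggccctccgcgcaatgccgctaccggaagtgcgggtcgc
RHEB, chr7:151519867-151519895, minus strand: gggagggtcaTGACGCAGCgagtttcagt
RICTOR, chr5:39074400-39074649, minus strand: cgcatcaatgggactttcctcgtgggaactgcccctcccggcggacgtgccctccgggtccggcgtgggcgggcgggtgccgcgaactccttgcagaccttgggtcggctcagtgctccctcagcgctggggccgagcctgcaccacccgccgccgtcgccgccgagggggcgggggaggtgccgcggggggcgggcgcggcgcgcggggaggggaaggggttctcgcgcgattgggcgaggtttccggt

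Per length, in TPM (a level scaled by transcript length and library total), RHEB was the most abundant of the 9 genes and DEPTOR the least. In the control libraries RHEB was at 190 and 187 TPM, AKT1S1 at 120 in both, and MLST8 at 99.1 and 99.4. These 3 stood well apart from the large subunits. TSC2 was at 22.2 and 24.4 TPM and RPTOR at 22.3 and 24.2, which could not be told apart, and MTOR followed at 21.2 and 21.6. RICTOR, at 7.87 and 6.71 TPM, and TSC1, at 6.21 and 6.40, were lower, and DEPTOR was at 1.32 and 1.56. The order was kept in SS+NAC, but in SS RICTOR (3.78 and 2.98 TPM) overlapped TSC1 (3.72 and 3.47). The direction of 2 genes depended on the scale. In TPM MLST8 was at 95.5 and 98.5 TPM and AKT1S1 at 114 and 113 TPM in SS, below both control libraries, whereas in CPM they were above them.

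**Figure D3:**
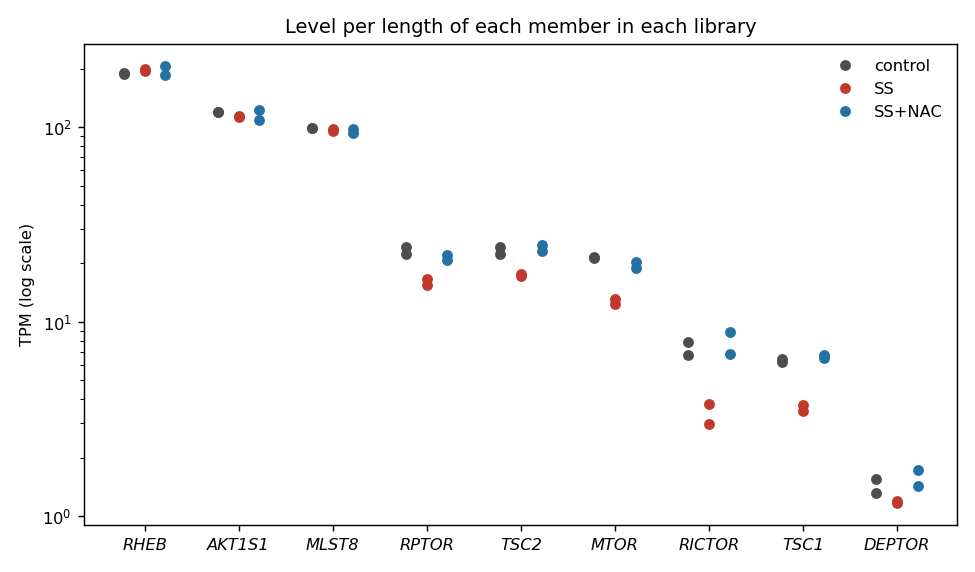
TPM of each gene on a log axis, ordered by the control mean, with a point for each library coloured by group. RHEB, AKT1S1 and MLST8 lie near 100 TPM or above, the large subunits RPTOR, TSC2 and MTOR between 12.3 and 24.9 TPM, and RICTOR, TSC1 and DEPTOR below 9 TPM, with the SS points of the 6 long genes below the others.

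Ratios between partners were formed within each library. MLST8 RNA per MTOR RNA was 4.67 and 4.61 in control, 7.26 and 8.03 in SS, and 4.84 and 4.96 in SS+NAC, on the TPM scale. The SS libraries were thus apart from the other 4, for a pair in which one transcript is short and the other long. The scaffolds of the 2 complexes are nearer in length, and RPTOR per RICTOR was 2.84 and 3.61 in control, 4.37 and 5.17 in SS, and 3.24 and 2.35 in SS+NAC. TSC2 per TSC1 was 3.57 and 3.81 in control, 4.73 and 4.97 in SS, and 3.67 and 3.57 in SS+NAC. RHEB per TSC2, the switch against its inhibitor, was 8.54 and 7.67 in control, 11.1 and 11.5 in SS, and 7.46 and 8.91 in SS+NAC. In each of these 4 ratios both SS libraries were above the other 4, and in each the gene in the numerator has the shorter transcript.

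In SS+NAC against control, 0 of the 9 genes were called by edgeR's quasi-likelihood test, against 2.01% of all genes, and 0 by DESeq2. MTOR was the only 1 of the 9 with an unadjusted p under 0.05 (log2 fold change -0.19, SE 0.0833, adjusted p = 0.296), and without SS+NAC replicate 1 it was called at -0.30 (adjusted p = 0.0407). RPTOR was at -0.17 (95% interval -0.36 to 0.02), and MLST8 and AKT1S1 were each at -0.11. RICTOR was at 0.04 (95% interval -0.21 to 0.30), TSC1 at 0.02, TSC2 at -0.02 and RHEB at 0.00 (95% interval -0.17 to 0.18). DEPTOR had the widest interval, at 0.10 and from -0.25 to 0.46. The median of the 9 was -0.02 and that of all genes -0.002, and fold change was all but unrelated to length, with a Spearman correlation of -0.04. The SS+NAC replicates differed more from each other than the control replicates did, and the SS replicates lay between. The chi-square per degree of freedom over genes was 11.7 in SS+NAC, 7.12 in SS and 3.05 in control. For 6 of the 9 genes SS+NAC replicate 2 had the lower CPM. Of the 6 genes called in SS, RPTOR alone had a 95% interval here that reached its value in SS.

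The SS group was also compared with SS+NAC, which uses the same SS libraries as the comparison with control. MTOR, RICTOR and TSC1 were lower and MLST8, AKT1S1 and RHEB higher in SS, 6 of 9 in all, against 42.7% of all genes, of which 23.1% were lower and 19.6% higher. RICTOR was at -0.88 (SE 0.118, edgeR adjusted p = 0.000472), TSC1 at -0.55 (SE 0.0901, adjusted p = 0.00105) and MTOR at -0.29 (SE 0.0839, adjusted p = 0.0169). MLST8 was at 0.35 (adjusted p = 0.00822), RHEB at 0.34 (adjusted p = 0.00589) and AKT1S1 at 0.30 (adjusted p = 0.0222). RPTOR, TSC2 and DEPTOR did not pass the test, at -0.12, -0.14 and -0.21. With the length offset 1 of the 9 was called, against 14.4% of all genes. That gene was RICTOR, at -0.37 (95% interval -0.61 to -0.14, edgeR adjusted p = 0.0432), and 14.5% of its length neighbours lay below it. With a replicate block added to the offset, RICTOR was at -0.38 and was no longer called (adjusted p = 0.0652). In the fit with the offset alone, RPTOR was at 0.29 and did not pass the test (edgeR adjusted p = 0.0630). Without SS replicate 2 the fit with no offset called 2 of the 9, RICTOR and TSC1, and 3250 of all 14005 genes. Leaving out SS replicate 1 (at -0.27) or SS+NAC replicate 1 (-0.18) ended the call of MTOR. Leaving out SS+NAC replicate 2 ended that of AKT1S1 (0.18) and added TSC2 (-0.24). The value of RPTOR ranged from -0.21 to -0.017 without each library in turn.

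**Figure D4:**
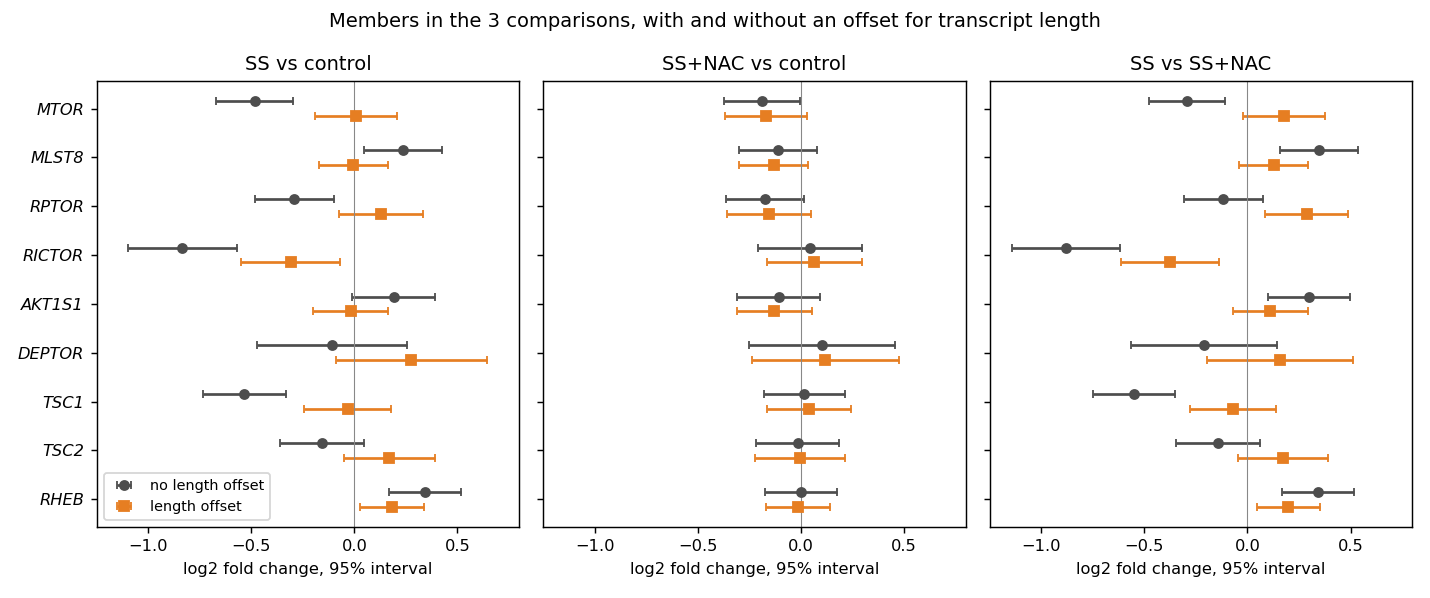
Log2 fold change (horizontal axis) with its 95% interval for each gene in the 3 comparisons, without (grey circles) and with (orange squares) the length offset. With the offset, RICTOR is the lowest in both comparisons with SS, at -0.31 and -0.37, 7 of the 9 orange values in SS against SS+NAC lie above 0, and in SS+NAC against control the paired values differ little.

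By the shape of their length-adjusted levels over the 6 libraries, the genes most like MTOR were GIPC1, SBF1 and GTF3C5, with root mean square differences of 0.0124, 0.0152 and 0.0184 on the log2 scale, among 9526 genes of at least 10 CPM. Those most like RHEB were DYNC1LI1, TMEM167A and UBE2J1, at 0.0201, 0.0226 and 0.0253. Without the length adjustment none of these 6 genes was among the nearest 3, so likeness here depends on that step.

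The wider pathway was described with a list of 66 genes in 5 roles, all of which were tested. In SS against control 14 rose and 13 fell, 27 of 66, near the 40% of all genes. Of 8 partners and chaperones of the complexes, only TBC1D7, the third subunit of the TSC complex, was called, at 0.43 (SE 0.0971, edgeR adjusted p = 0.00554). Its length neighbours had a median of 0.40, and with the offset it was at 0.06 and was not called (edgeR adjusted p = 0.741). Of 13 Rag GTPase, Ragulator and folliculin genes, which place mTOR complex 1 on the lysosome, 5 rose and 2 fell, against the 18.6% higher and 21.4% lower of all genes, and 0 were called with the offset, against 9.23% of all genes. LAMTOR4, a Ragulator subunit with an effective length of 600 bases, was at 39.6 and 43.3 CPM in control and 58.4 and 63.6 CPM in SS (log2 fold change 0.56, edgeR adjusted p = 0.000809), and with the offset it was at 0.01. Of its exonic bases, 18.4% overlap C7orf43. FNIP2, which encodes a partner of folliculin, was at 36.6 and 34.9 CPM in control and 24.5 and 22.8 CPM in SS. It fell by 0.60 on the log2 scale (edgeR adjusted p = 0.000503), and with the offset it was at -0.27 and was not called (adjusted p = 0.0587).

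Of 17 amino acid sensing genes (the GATOR complexes, KICSTOR and the sensors), 3 rose and 1 fell in SS, where 18.6% of all genes rose and 21.4% fell. CASTOR2, related to the arginine sensor CASTOR1, was at 13.6 and 12.8 CPM in control, 18.8 and 17.9 in SS and 13.6 and 13.0 in SS+NAC. It rose by 0.47 (SE 0.100, edgeR adjusted p = 0.00412) and, with the offset, by 0.69 (adjusted p = 0.00295). Its effective length of 4365 bases is greater than the 1363 exonic bases in GENCODE release 29, so the offset rests on a longer transcript model. Its related copy CASTOR3 may share its reads.

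Of 13 upstream kinases and brakes, 2 rose and 6 fell, against the 18.6% higher and 21.4% lower of all genes, and with the offset 1 was called higher and 0 lower, against 4.19% and 5.03% of all genes. DDIT4 encodes REDD1, a stress-induced inhibitor of mTOR complex 1 that acts through TSC2. It was at 14.1 and 14.5 CPM in control, 35.6 and 24.3 in SS and 65.2 and 83.7 in SS+NAC, so the 3 groups did not overlap. DDIT4 rose 2.09-fold in SS (log2 fold change 1.07, SE 0.180, edgeR adjusted p = 0.00132), and by 0.83 with the offset (adjusted p = 0.0286). Of its exonic bases, 41.2% overlap the antisense gene DDIT4-AS1. The kinases PRKAA2 and PDPK1 fell, by 0.80 and 0.68 on the log2 scale (edgeR adjusted p = 0.00135 and 0.000212), and with the offset they were at -0.28 and -0.23 and were not called. PRKAA2 encodes a catalytic subunit of AMPK, and PDPK1 encodes PDK1, which phosphorylates AKT; 16.8% of the exonic bases of PDPK1 overlap an antisense gene, and its related copy PDPK2P may share its reads.

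Of 15 downstream targets, 3 rose and 4 fell, near the 18.6% higher and 21.4% lower of all genes in the fit with no offset. With the offset 0 were called, against 9.23% of all genes. EIF4EBP1, which encodes a translational repressor that mTOR complex 1 phosphorylates and inactivates, was at 134 and 142 CPM in control and 176 and 221 CPM in SS (log2 fold change 0.52, edgeR adjusted p = 0.00471), and at 0.05 with the offset. Without SS replicate 2 its adjusted p was 0.0537. With the length offset 2 of the 66 genes were called, DDIT4 and CASTOR2, both higher, against 4.19% of all genes higher and 5.03% lower.

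In SS+NAC against control 2 of the 66 genes were called, both of them higher, against 1.36% of all genes, and both are brakes on mTOR complex 1. SESN2 encodes Sestrin2, a leucine sensor that restrains the complex through GATOR2. It was at 27.5 and 30.6 CPM in control, 30.9 and 31.2 in SS, and 91.3 and 85.2 in SS+NAC. SESN2 rose 3.04-fold in SS+NAC against control (log2 fold change 1.60, SE 0.0829, edgeR adjusted p = 2.36e-06), and in SS against control it did not pass the test (0.10, adjusted p = 0.407). DDIT4 rose 5.21-fold (log2 fold change 2.38, SE 0.174, edgeR adjusted p = 4.19e-05). Both values were almost the same with the length offset, at 1.60 and 2.36. Both genes were also lower in SS than in SS+NAC, SESN2 at -1.51 (adjusted p = 1.16e-05) and DDIT4 at -1.31 (adjusted p = 0.000332). Both SS+NAC libraries were thus above the other 4 for these 2 brakes.

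Against SS+NAC, 12 of the 66 genes were higher and 16 lower in SS, near the shares of all genes, 19.6% and 23.1%. The Ragulator genes LAMTOR2, LAMTOR4 and LAMTOR5 were the highest, at 0.70, 0.68 and 0.64 (edgeR adjusted p at most 0.000457), and all 3 are short, at 600 to 830 bases. With the offset they were at 0.13, 0.10 and 0.15 and were not called. PRKAA2 was lower, at -0.87 (adjusted p = 0.00078), and with the offset it was at -0.36 and was not called (adjusted p = 0.0954). With the offset 5 of the 66 were called, 2 higher and 3 lower, against 7.04% and 7.38% of all genes. RRAGA, a Rag GTPase, was higher at 0.28 (adjusted p = 0.0220, and 0.059 with a replicate block added) and CASTOR2 at 0.68 (adjusted p = 0.00231). SESN2, DDIT4 and FNIP2 (-0.37, adjusted p = 0.0122), were lower.

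**Figure D5:**
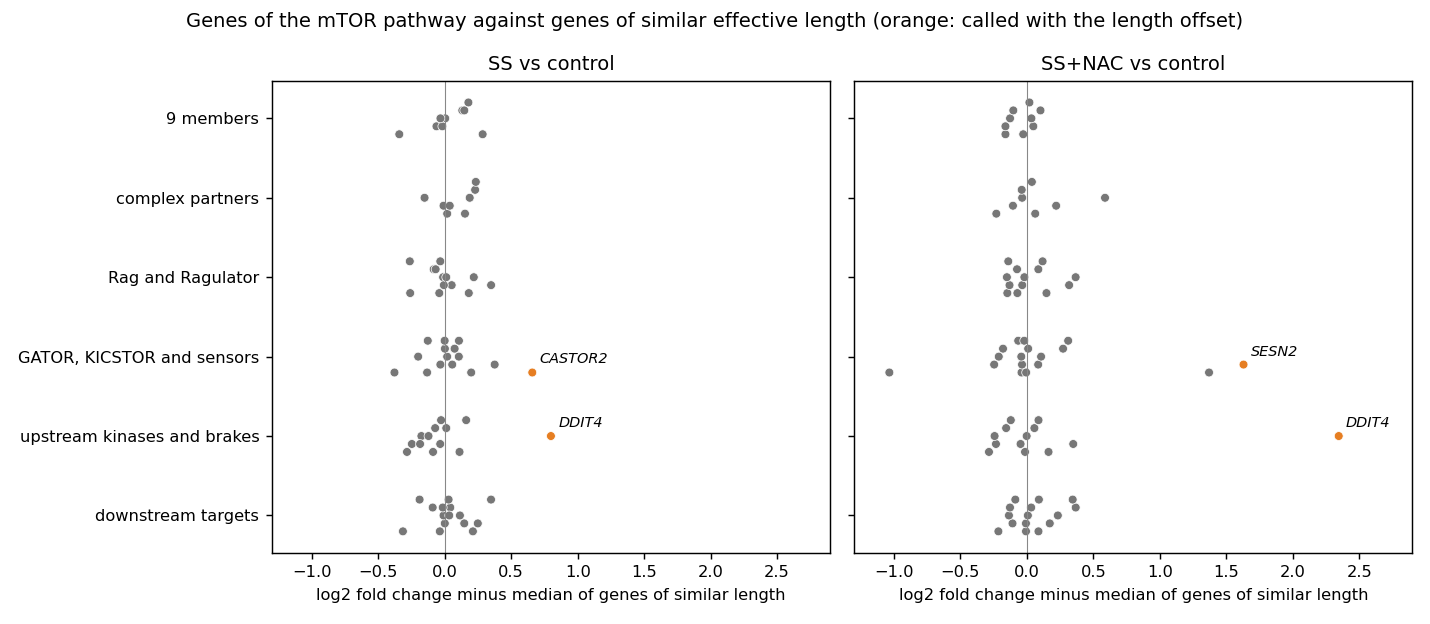
Log2 fold change minus the median of genes of similar length (horizontal axis) for the 9 core genes and the 66 pathway genes by role, in SS against control (left) and SS+NAC against control (right), with 1 point a gene and genes called with the length offset in orange. Most points lie near 0 in both panels, and on the right SESN2 at 1.63 and DDIT4 at 2.35 stand apart, as do CASTOR1 at 1.37 and SESN3 at -1.04, which were not called.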

How the data were processed

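KHM-5M RNA was captured with oligo(dT), fragmented, primed at random and read in single-end runs, and the authors mapped reads with HISAT2 2.0.4 and estimated levels with RSEM 1.2.12 (the submitters' processing notes also list Bowtie2 2.2.5). The genome build, the annotation and the strandedness of counting are not given in the sources used here. The deposited expected counts are those the authors obtained from RSEM, not normalised, and 44.8% of them are not whole. The deposited FPKM values were made by the authors from these counts, gene length and depth. The deposited TPM values were made by the authors with RSEM on the same basis. Columns of group means and of the authors' own fold changes and p-values were not used.

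Expected counts were rounded, filtered with filterByExpr, TMM-scaled and fitted over all 6 libraries with the quasi-likelihood test of edgeR 4.0.16 (R 4.3.3), with Benjamini-Hochberg adjustment over 14005 genes. Nothing in the labels ties samples of different groups, and the methods call the 2 samples of a group biological replicates. The spread between libraries was a coefficient of variation of 6.74%. Intervals of 95% come from the same fit. Effective length was derived from counts and FPKM. The length offset was a lowess fit (span 0.3), per library, of the deviation of log2 CPM (prior count 2) on log length. Length neighbours were the 100 shorter and 100 longer genes nearest in length. The replicates of a group did not hold identical values. The fits were tested on simulated data, and the outcome of that is not reported here. The genes and lists were chosen with earlier results of these data known. All 9 genes are named, and from the pathway list the 3 highest and 3 lowest called genes of each comparison and every gene called with the offset, plus TBC1D7, named after its value was seen. Results for some pathway genes are not reported here. Alternatives were DESeq2 1.42.0 (size factors and Wald test), other filters, the compared libraries alone, the length offset, Bonferroni adjustment, a replicate block, 100 or 400 neighbours, FPKM levels and leaving out each library. Positions are from GENCODE release 29 (GRCh38). Figures were drawn with matplotlib 3.10.9.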

Additional observations from a re-analysis of the deposited data

How the results depend on the processing

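In SS against control the length offset left 1292 genes in all, 0 of the 9 core genes and 2 of the 66 pathway genes, and in SS against SS+NAC 2019, 1 and 5. With the offset and the replicate block together the counts were 851, 0 and 2, and 1366, 0 and 4, with RICTOR and RRAGA no longer called in SS against SS+NAC. With the offset, the direction in SS against control turned for MTOR (0.0084), MLST8 (-0.0050), DEPTOR (0.28), RPTOR (0.13), AKT1S1 (-0.018) and TSC2 (0.17). In SS against SS+NAC it turned for MTOR (0.18), DEPTOR (0.16), RPTOR (0.29) and TSC2 (0.17). With the block added, these values were 0.0086, -0.0050, 0.28, 0.13, -0.018 and 0.17, and 0.18, 0.16, 0.29 and 0.17. In SS+NAC against control, values near 0 turned for TSC1 with DESeq2 size factors (-0.00060) and the DESeq2 test (-0.00025), and for RHEB with both (-0.0154 and -0.0155), with the offset (-0.0155) and with the offset and block (-0.0162). With Bonferroni adjustment 220, 0 and 1 genes were called in SS against control, 191, 0 and 1 in SS against SS+NAC, and 40 genes in all in SS+NAC against control. Groups share replicate numbers that the labels do not tie, and same-numbered libraries deviated with correlations of 0.11, -0.11 and -0.17 in the 3 comparisons. The replicate block called 4857 genes, 5 core genes and 25 pathway genes in SS against control, and MLST8 was lost there (adjusted p = 0.0912). With the SS+NAC numbers crossed, a setting chosen after seeing the data, SS+NAC against control gave 1475 genes and 9 pathway genes, and AKT1S1 was called in SS against control (adjusted p = 0.0186). Without each library in turn, the calls over all genes ranged from 3118 to 6579 in SS against control, 98 to 1086 in SS+NAC against control and 3250 to 6339 in SS against SS+NAC. Those of the 9 genes ranged from 3 to 7, 0 to 1 and 2 to 6, and those of the pathway list from 15 to 31, 2 to 5 and 19 to 33. The direction turned in these settings for DEPTOR in SS against control (-0.23 to 0.067). In SS+NAC against control it turned for DEPTOR (-0.020 to 0.25), TSC1 (-0.066 to 0.093), RHEB (-0.027 to 0.029), RICTOR (-0.095 to 0.17), TSC2 (-0.12 to 0.080) and AKT1S1 (-0.24 to 0.012). The median distance from length neighbours ranged from -0.04 to 0.05, -0.10 to -0.03 and 0.06 to 0.20. The genes most like MTOR and RHEB shared 0 of 3 with those found without the length adjustment. The causes of these differences were not tested. Of the 9 genes DEPTOR had the fewest counts, and groups of 2 limit every gene.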

Other observations

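CASTOR1, the arginine sensor, was near the detection limit and was singled out after its values were seen. Of its exonic bases, 46.0% overlap the gene AC004997.1 on the same strand. The control libraries had 13 and 10 counts of CASTOR1, those of SS had 16 and 25, and those of SS+NAC had 34 and 39. Its log2 fold change in SS+NAC against control was 1.38 (SE 0.374) and did not pass the test (edgeR adjusted p = 0.102).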
